A study of Arabidopsis thaliana with 6 samples.

Results

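The genes described are 6 Arabidopsis thaliana markers of jasmonate and salicylate defence: PDF1.2 (AT5G44420), THI2.1 (AT1G72260), THI2.2 (AT5G36910), JMT (AT1G19640), GRX480 (AT1G28480) and SAG101 (AT5G14930). They were chosen by name, with earlier results of these data known, so their standing among all probe sets is a description. Each was read by 1 probe set that the platform annotation assigns to that gene alone. They are 6 of the 13286 genes with such a probe set and 6 of 22746 tested probe sets. THI2.1, JMT and GRX480 lie on chromosome 1, and PDF1.2, THI2.2 and SAG101 on chromosome 5.

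Total RNA from plants labelled as 3 weeks old was hybridised to 6 Affymetrix ATH1 arrays, on which a transcript is read by a set of short probes (a probe set). The groups, of 2 arrays each, were wild-type Col-0 given 10 ppm of ethylene gas, the line amiR-ETP1/2, and Col-0 kept in hydrocarbon-free air as the control. The amiR-ETP1/2 line carries an artificial microRNA against ETP1 and ETP2, which the study title describes as F-box proteins connected with EIN2 degradation, and its labels give no gas treatment. The length of exposure is 4 h in the sample characteristics and design text but 24 h in the array titles. All lines derive from Col-0. The labels name no organ, no promoter for the microRNA and no number of independent lines.

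Jasmonate is perceived by the F-box receptor COI1, which removes JAZ repressors and frees MYC transcription factors, while salicylate acts through NPR proteins and TGA factors. Ethylene signals through EIN2 and EIN3 to ERF transcription factors, and jasmonate and ethylene act together on defensin genes such as PDF1.2, whereas salicylate commonly counteracts that branch. PDF1.2 encodes a small cysteine-rich antifungal peptide, and THI2.1 and THI2.2 encode thionins, another class of small antimicrobial peptides. JMT methylates jasmonic acid to the volatile methyl jasmonate. GRX480 is a glutaredoxin of the CC type that binds TGA factors, and SAG101 is a lipase-like partner of EDS1 in immune signalling that was first named for leaf senescence.

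The arrays were alike in their overall scale, with medians of 4.39 to 4.46 and 25th percentiles of 3.75 to 3.84 on the deposited scale, which was taken as log2. The most frequent signal on an array lay at 3.70 to 3.79, so values there mark the floor at which most low signals pile up. ETP2, a target of the microRNA, had log2 levels of 4.23 and 4.47 in amiR-ETP1/2 and 4.06 and 4.14 in air, a difference of 0.25 that was not called (limma adjusted p = 0.448), and ETP1 had no named probe set. The ethylene arrays stood apart in the leaf markers and in the step from the 3' end to the middle of the actin control. They also stood apart in the levels of the GAPDH control. A listed gene is called measured here where the annotation names a probe set for it alone. The 5 measured leaf markers, of 7 listed, averaged log2 levels of 9.34 and 9.35 in the ethylene arrays. They averaged 12.38 and 12.47 in amiR-ETP1/2 and 12.55 and 12.46 in air. All 5 were called lower with ethylene, with a median log2 difference of -3.36, and none was called in amiR-ETP1/2 against air. The actin control was higher at its 3' end than in its middle. The step was 2.17 and 2.02 log2 units with ethylene, 0.89 in each amiR-ETP1/2 array and 0.32 and 0.83 in air. The 5' end of actin did not set ethylene apart from air. Its log2 levels were 5.49 and 5.53 with ethylene, 4.91 and 4.61 in amiR-ETP1/2 and 5.76 and 5.07 in air. Those of the 3' end were 8.89 and 9.05, 9.69 and 9.81, and 9.79 and 9.75 in the same order. From its 3' to its 5' end actin thus fell least on the ethylene arrays. The step of the GAPDH control did not set ethylene apart from air. Its 3' end was higher than its 5' end by 1.02 and 1.76 with ethylene, 0.52 and 0.66 in amiR-ETP1/2 and 0.77 and 1.76 in air. The GAPDH levels did set ethylene apart. Those of the 3' end were 8.37 and 8.76 with ethylene, 10.17 and 10.02 in amiR-ETP1/2 and 9.95 and 10.05 in air. Those of the 5' end were 7.35 and 7.01, 9.65 and 9.36, and 9.18 and 8.30 in the same order. The part of leaf RNA and of RNA quality in any result below was not tested. The share of probe sets called against air was 36.0% with ethylene. The 2 root markers measured, EXPA7 and EXPA18, together averaged 3.87 to 4.66 over the 6 arrays, and no flower marker was measured.

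Only THI2.2 had a signal well clear of the floor. The other 5 genes gave 30 values between 3.64 and 5.03, of which 24 lay below the median of their array and 3 below its 25th percentile. Both arrays of a group commonly differ by little at low signals, with a median gap of 0.118 with ethylene, 0.116 in amiR-ETP1/2 and 0.133 in air. These medians are over the probe sets whose mean over the 6 arrays was below the median of such means, called below-median probe sets here. Each position is given as a distance from the array's own floor and not as a ranking of transcripts, since the signals of different probe sets are not comparable as amounts.

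**Figure D1:**
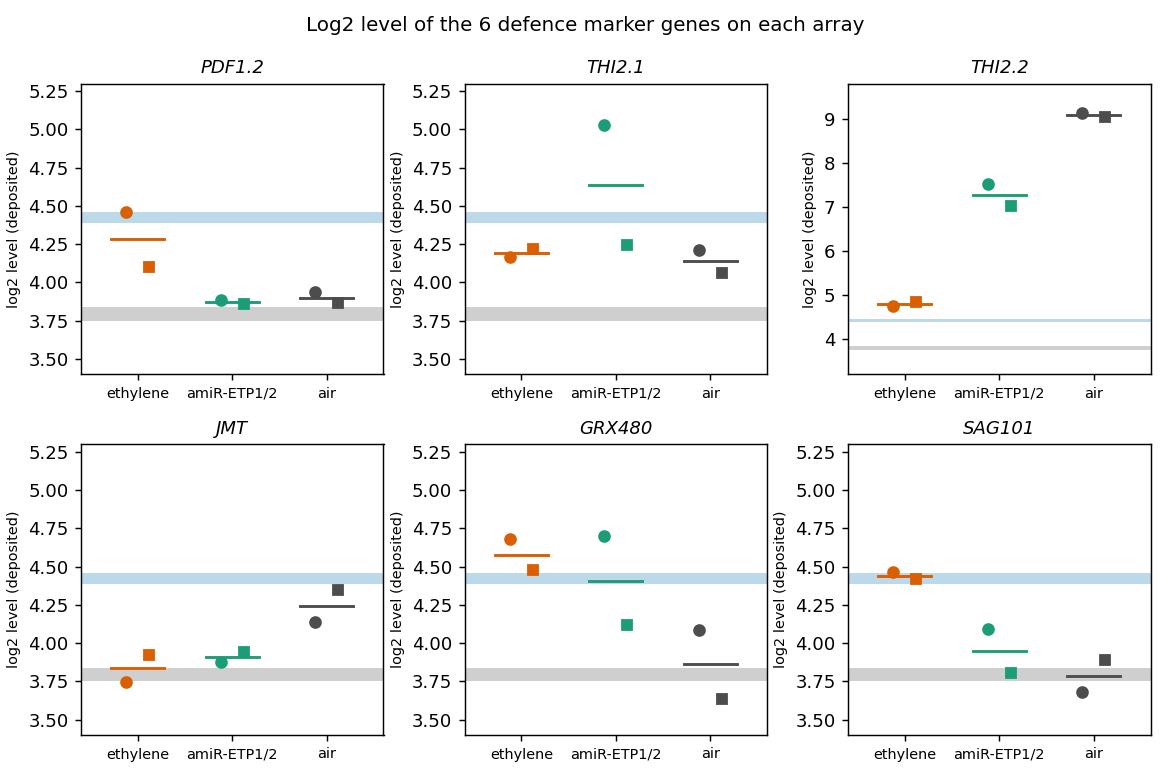
Log2 level of each of the 6 genes (vertical axis, deposited values) on each array by group, with array 1 of a group as a circle, array 2 as a square and the group mean as a bar; the blue band spans the array medians (4.39 to 4.46) and the grey band the array 25th percentiles (3.75 to 3.84). THI2.2 has an axis of its own and is far above both bands in air, while the other genes lie between 3.64 and 5.03.

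THI2.2, a thionin gene, was the member with a high signal, and it was lower both with ethylene and in amiR-ETP1/2. Its log2 levels were 4.76 and 4.83 in the ethylene arrays, 7.52 and 7.02 in the amiR-ETP1/2 arrays and 9.13 and 9.04 in the air arrays. The groups did not overlap, and the order was ethylene below amiR-ETP1/2 below air. Against air, THI2.2 fell 19.5-fold with ethylene (log2 difference -4.29, SE 0.18, 95% interval -4.71 to -3.87, limma adjusted p = 3.13e-06). In amiR-ETP1/2 it fell 3.51-fold against air (-1.81, SE 0.18, interval -2.23 to -1.39, adjusted p = 0.0124). The amiR-ETP1/2 level exceeded that with ethylene 5.57-fold (log2 difference 2.48, SE 0.18, adjusted p = 3.24e-05). These whole-plant or tissue RNA values cannot tell fewer cells of a type from less THI2.2 RNA per cell.

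In size the amiR-ETP1/2 difference of THI2.2 lay at percentile 99.8 of the absolute differences of all probe sets, and the ethylene difference at 99.1. Among the 1138 probe sets of similar mean level, the 5th percentile of the difference was -3.17 with ethylene and -0.63 in amiR-ETP1/2. Its ethylene signal was 0.36 log2 units above the array median, so the fold with ethylene ends close to the floor and is a ratio of the deposited values, not a measure of transcript number. The median difference over 3008 chromosome 5 probe sets was -0.10 in amiR-ETP1/2 against air, where THI2.2 had -1.81. That median describes the whole chromosome, and the neighbourhood of THI2.2 was not tested. The call in amiR-ETP1/2 against air rested on the pooled spread and on every air and ethylene array. Leaving out air array 1 gave an adjusted p of 0.0609, and leaving out air array 2 gave 0.06. It was 0.119 when an ethylene array was dropped or only the 4 arrays compared were fitted, and 0.0668 with low values raised to the 25th percentile, while the difference stayed between -2.06 and -1.56 over all alternatives.

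Few single-gene probe sets followed the profile of THI2.2 over the 6 arrays as closely as AT5G62550 (Pearson's r = 0.9984), AT2G47390 (r = 0.9936) and PIFI (AT3G15840, a chloroplast protein; r = 0.9926). The comparison took in 3853 probe sets that varied by at least 1 log2 unit, of which 10 had an r above 0.99. PIFI had log2 levels of 9.32 and 9.28 with ethylene, 10.38 and 10.41 in amiR-ETP1/2 and 11.01 and 11.07 in air, the same order of groups over a smaller range. The points are 6 arrays in 3 groups, so such an r mainly reflects the order and spacing of the group means.

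THI2.1, the jasmonate-inducible thionin, did not differ detectably in any comparison. It had log2 levels of 4.17 and 4.22 with ethylene, 5.03 and 4.25 in amiR-ETP1/2 and 4.21 and 4.06 in air. Array 1 of amiR-ETP1/2 was the high value, and its gap of 0.79 from array 2 lay at percentile 99.4 of the gaps in that group among the below-median probe sets. The difference of ethylene from air was 0.05 (SE 0.24, interval -0.51 to 0.62, adjusted p = 0.902). That of amiR-ETP1/2 from air was 0.50 (SE 0.24, interval -0.07 to 1.07, adjusted p = 0.388), and that of amiR-ETP1/2 from ethylene was 0.45 (SE 0.24, adjusted p = 0.199). The last was 0.84 (adjusted p = 0.00573) without array 2 of amiR-ETP1/2, which leaves the single high array in that group, and 0.05 without array 1. The 95% intervals of the ethylene difference were thus -0.51 to 0.62 for THI2.1 and -4.71 to -3.87 for its paralogue THI2.2.

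PDF1.2, the usual marker of joint jasmonate and ethylene signalling, was not called in any comparison with all 6 arrays and the default fit. Its log2 levels were 4.46 and 4.10 with ethylene, 3.88 and 3.86 in amiR-ETP1/2 and 3.93 and 3.87 in air. Both ethylene arrays lay above the other 4 arrays, which were close to the floor, on average 0.11 (amiR-ETP1/2) and 0.09 (air) above the 25th percentile. The difference of ethylene from air was 0.38 (SE 0.15, interval 0.03 to 0.74, adjusted p = 0.0951), and that of amiR-ETP1/2 from air was -0.03 (SE 0.15, interval -0.39 to 0.32, adjusted p = 0.951). Against ethylene, amiR-ETP1/2 differed by -0.41 (adjusted p = 0.0696), a difference called with the trend and robust options (0.0406) and without ethylene array 2 (-0.59, adjusted p = 0.0366). Without ethylene array 2 the difference of ethylene from air was likewise called, at 0.56 with an adjusted p of 0.0458. The gap of 0.36 between the ethylene arrays was at percentile 93.6 among below-median probe sets.

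Some other defensin genes were called with ethylene, in a share near that of all probe sets. Of 10 listed defensin genes beside PDF1.2, 8 were measured, and with ethylene 3 rose, 1 fell and 4 were not called (median log2 difference 0.17, against -0.00 over all probe sets). Among all probe sets 18.9% were called higher, 17.1% lower and 36.0% in either direction. PDF1.2B (AT2G26020), a closely related copy of PDF1.2, had log2 levels of 6.40 and 6.82 with ethylene, 3.60 and 3.77 in amiR-ETP1/2 and 3.84 and 3.71 in air. It rose with ethylene (log2 difference 2.83, SE 0.17, adjusted p = 1.41e-05). PDF1.4 (AT1G19610) had levels of 6.40 and 6.75 with ethylene, 3.86 and 3.71 in amiR-ETP1/2 and 4.27 and 3.38 in air, and rose by a log2 difference of 2.75 (SE 0.28, adjusted p = 0.00019). PDF1.1 (AT1G75830) rose by a log2 difference of 1.15 (SE 0.12, adjusted p = 0.00018), with levels of 4.78 and 4.74 with ethylene, 3.63 and 3.63 in amiR-ETP1/2 and 3.61 and 3.62 in air. The air means of these 3 genes lay at the floor, at -0.03 for PDF1.2B, 0.02 for PDF1.4 and -0.20 for PDF1.1 from the 25th percentile of their arrays, so the differences are measured from the floor and give no exact fold of the transcripts. The 3 rises were all in the PDF1 subfamily, which also holds PDF1.2.

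The probe set of PDF1.2B is of the _x_at class, in which some probes may also match other transcripts, so its signal cannot be assigned to a single copy. In the annotation PDF1.2 is directly next to PDF1.2C and PDF1.2B next to PDF1.3, and neither neighbour was measured by a named probe set. The ethylene differences of the PDF1.2B and PDF1.2 probe sets were 2.83 (interval 2.44 to 3.23) and 0.38 (interval 0.03 to 0.74), and they were not tested against each other. In the PDF2 subfamily, PDF2.3 fell with ethylene (log2 difference -2.19, adjusted p = 0.000226), with levels of 7.10 and 7.28 against 9.28 and 9.49 in air. PDF2.2 differed by -0.23 (adjusted p = 0.351), and PDF2.1, PDF2.5 and PDF2.6 stayed below 4.05 on every array.

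In amiR-ETP1/2 none of the 8 other defensin genes was called against air (limma; median -0.02, against -0.03 over all probe sets), beside 0.620% of all probe sets called and 2 of the 8 at an unadjusted p under 0.05, beside 15.1% of all. The 2 were PDF2.2 (0.93, adjusted p = 0.0665) and PDF2.3 (-0.97, adjusted p = 0.124). PDF2.2 had an adjusted p of 0.028 and PDF2.3 of 0.0248 without array 2 of amiR-ETP1/2. The PDF1 genes raised by ethylene had differences of -0.09 for PDF1.2B (interval -0.49 to 0.31), -0.04 for PDF1.4 (interval -0.70 to 0.61) and 0.02 for PDF1.1 (interval -0.25 to 0.29). PDF1.4 was 0.40 higher without air array 1, as its air arrays differed by 0.89. Against ethylene, amiR-ETP1/2 was lower in all 3 of these genes, by -2.92, -2.80 and -1.12 log2 units in the same order (limma adjusted p at most 0.000192). The 3 were named for their rise on the same ethylene arrays, so their lower values here are no separate result. PDF2.2 and PDF2.3 were higher in amiR-ETP1/2 than with ethylene. Among all probe sets 20.2% were called lower and 18.2% higher in this comparison.

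**Figure D2:**
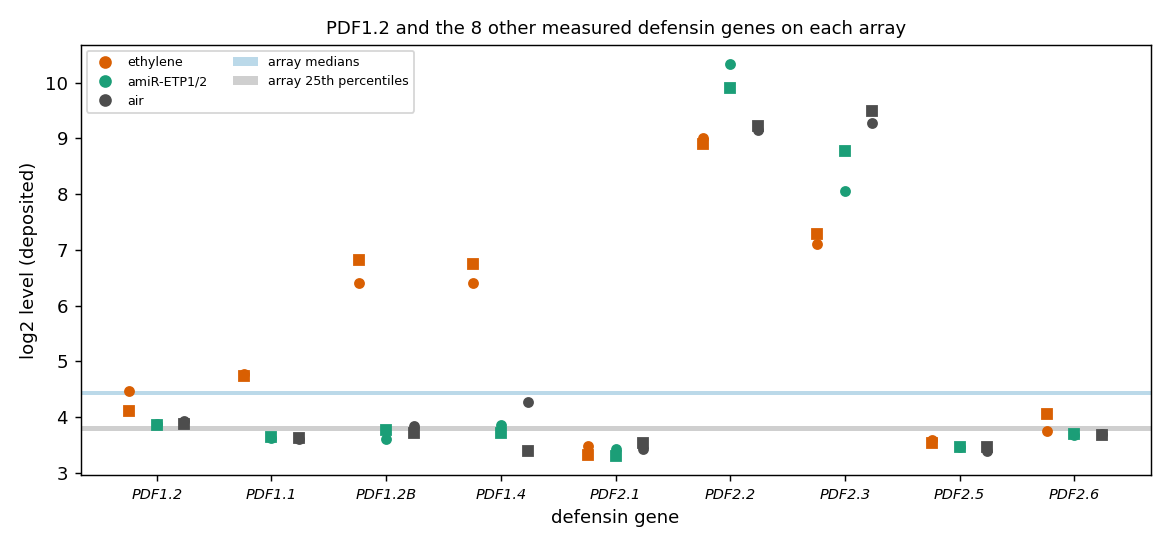
Log2 level (vertical axis, deposited values) of PDF1.2 and the 8 other measured defensin genes on each array, coloured by group, with array 1 as a circle and array 2 as a square; the bands span the array medians and 25th percentiles. PDF1.2B and PDF1.4 stand between 6.40 and 6.82 with ethylene, whereas the PDF1.2 probe set reaches at most 4.46.

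JMT, the jasmonate methyltransferase gene, was highest in air, with ethylene and amiR-ETP1/2 overlapping below it, and no difference was called. Its log2 levels were 3.75 and 3.92 with ethylene, 3.88 and 3.94 in amiR-ETP1/2 and 4.14 and 4.35 in air. Both air arrays lay above the other 4, and the ethylene mean was only 0.04 above the 25th percentile of its arrays, which leaves little room for a lower signal. The difference of ethylene from air was -0.41 (SE 0.14, interval -0.73 to -0.09, adjusted p = 0.0547). It crossed the threshold after quantile normalization (adjusted p = 0.0434), median centring (0.0494), raising low values to the 25th percentile (0.0433) and with the trend and robust options (0.0339). In amiR-ETP1/2 the difference from air was -0.33 (SE 0.14, interval -0.66 to -0.01, adjusted p = 0.31), and amiR-ETP1/2 minus ethylene was 0.07 (adjusted p = 0.73).

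Few further genes of the jasmonate lists had a probe set named for them alone. OPCL1, which activates a jasmonate precursor, was the 1 of 20 listed genes of synthesis and turnover, with log2 levels of 6.46 and 6.55 with ethylene, 7.61 and 7.09 in amiR-ETP1/2 and 6.72 and 6.97 in air. It was not called with ethylene against air (-0.34, adjusted p = 0.239) or in amiR-ETP1/2 against air (0.51, adjusted p = 0.275). It was 1.80-fold higher in amiR-ETP1/2 than with ethylene (adjusted p = 0.0101), a call lost without ethylene array 1 (0.0758) or array 2 (0.0585). Of 16 listed genes of perception and signalling, the related transcription factor genes MYC3 and MYC4 were measured and moved in opposite directions with ethylene. MYC3 had levels of 6.78 and 6.30 with ethylene against 5.14 and 4.81 in air and rose 2.95-fold (log2 difference 1.56, SE 0.21, adjusted p = 0.00078). MYC4 had levels of 4.26 and 4.07 with ethylene against 5.68 and 5.41 in air, and its difference was -1.38 (SE 0.23, adjusted p = 0.00225). In amiR-ETP1/2 neither was called against air, at 0.04 for MYC3 (adjusted p = 0.958) and 0.48 for MYC4 (adjusted p = 0.38). BSMT1, a methyltransferase for benzoate and salicylate and the 1 measured of 11 responsive genes, stayed between 3.26 and 3.82 on all arrays.

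GRX480, the salicylate-responsive glutaredoxin gene, was higher with ethylene than in air by a margin that depended on single arrays. Its log2 levels were 4.68 and 4.48 with ethylene, 4.70 and 4.12 in amiR-ETP1/2 and 4.09 and 3.64 in air. Array 2 of air was below the most frequent signal of its array, and the ethylene arrays did not overlap with air. GRX480 rose with ethylene (log2 difference 0.72, SE 0.23, interval 0.17 to 1.26, adjusted p = 0.0483). Some alternatives kept the call: the replicate block (limma adjusted p = 0.0122), the trend and robust options (0.0174) and the 4 arrays compared (0.0178). So did leaving out the lowest 40% of probe sets (0.0258). The call was lost without ethylene array 1 (adjusted p = 0.239), ethylene array 2 (0.132) or air array 2 (0.234, with a difference of 0.49), after quantile normalization (0.0517) or median centring (0.0512), and with low values raised to the 25th percentile (0.11).

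In amiR-ETP1/2 the difference of GRX480 from air was 0.55 (SE 0.23) and was not called (adjusted p = 0.33). Against ethylene it was -0.17 (SE 0.23, interval -0.72 to 0.38, adjusted p = 0.631), and its sign turned to 0.12 without array 2 of amiR-ETP1/2. The gaps between replicates were 0.59 in amiR-ETP1/2 and 0.45 in air, at percentiles 98.3 and 94.6 among below-median probe sets. Many of those have a lower mean level than GRX480, and the gaps were not ranked among probe sets of similar level. The single-gene probe sets closest to GRX480 over the 6 arrays were SDRB (AT3G12800, r = 0.9673), AT1G72940 (r = 0.9635) and SRC2 (AT1G09070, r = 0.9536). In all of them array 2 was below array 1 both in amiR-ETP1/2 and in air, as in GRX480. SRC2 was far above the floor, with log2 levels of 10.02 and 10.19 with ethylene, 10.07 and 9.39 in amiR-ETP1/2 and 9.34 and 8.26 in air.

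SAG101, the EDS1 partner, was higher with ethylene than in both other groups. Its log2 levels were 4.46 and 4.42 with ethylene, 4.09 and 3.81 in amiR-ETP1/2 and 3.68 and 3.89 in air. Both ethylene arrays lay above the other 4, and the air mean was 0.02 below the 25th percentile of its arrays. SAG101 rose against air (log2 difference 0.66, SE 0.15, interval 0.31 to 1.01, adjusted p = 0.0109). In amiR-ETP1/2 it was not called against air (0.17, SE 0.15, interval -0.18 to 0.52, adjusted p = 0.662), and it was lower than with ethylene (-0.49, SE 0.15, adjusted p = 0.0355).

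The rise of SAG101 against air was lost without ethylene array 1 (adjusted p = 0.0733), ethylene array 2 (0.0622) or air array 1 (0.0593). The difference between amiR-ETP1/2 and ethylene was lost without ethylene array 1 (0.154), ethylene array 2 (0.127) or array 2 of amiR-ETP1/2 (0.176), and after median centring (0.0501). Its size ran from 0.55 to 0.76 in the first comparison and from -0.63 to -0.35 in the second.

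Further salicylate genes were scarce in the annotation, with 1 of 15 listed genes of synthesis and turnover and none of 18 signalling and 5 responsive genes measured. The 1 gene, UGT74F1, a glucosyltransferase that acts on salicylate, had log2 levels of 4.07 and 4.16 with ethylene, 3.72 and 3.83 in amiR-ETP1/2 and 3.85 and 4.04 in air, and no difference was called. Senescence genes were set beside SAG101 for its name. With ethylene 3 of 4 measured genes of 10 listed rose, all of them WRKY transcription factor genes, with log2 differences of 1.89 for WRKY53, 2.12 for WRKY6 and 2.18 for WRKY22 (those of WRKY53 and WRKY22 measured from air levels at the floor), beside 18.9% of all probe sets called higher, and the median log2 difference of the list was 2.01 beside -0.00 over all probe sets. SAG29, a sugar transporter gene, differed by 0.08 (adjusted p = 0.89) and had levels of 4.88 and 5.12 with ethylene, 5.86 and 6.91 in amiR-ETP1/2 and 4.91 and 4.94 in air. No senescence gene was called in amiR-ETP1/2 against air (limma, 2 of 4 at an unadjusted p under 0.05), where 0.620% of all probe sets were called and 15.1% had such an unadjusted p, and the adjusted p of SAG29 was 0.098, or 0.00596 without array 1 of amiR-ETP1/2.

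**Figure D3:**
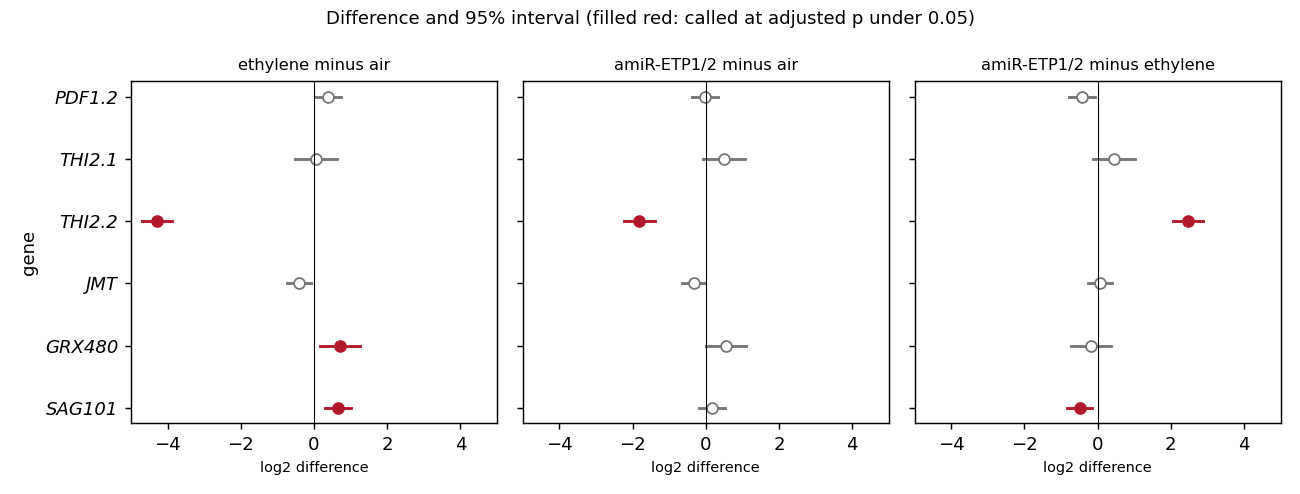
Log2 difference (horizontal axis, points) with its 95% interval (lines) for the 6 genes in the 3 comparisons; filled red points have an adjusted p under 0.05. THI2.2 is far from 0 in all 3 panels, while the intervals of the other genes lie between -0.84 and 1.26.

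With ethylene against air, 2 of the 6 genes were called higher (GRX480 and SAG101), beside 18.9% of all probe sets, 1 lower (THI2.2), beside 17.1%, and 3 not. The share called in either direction was 36.0%, so 3 of 6 is near the background and no result about these genes as a group. Among the 5 genes below the median 2 were called, where 9.45% of below-median probe sets were. Many of those have a lower mean level than the 5 genes. Among probe sets of similar mean level the share called was higher. It was 10.7% for JMT, 14.5% for PDF1.2 and SAG101, 23.4% for GRX480 and 30.1% for THI2.1. The split at the median rests on the mean of all arrays. Probe sets that rose far from the floor, such as PDF1.2B, thus fall above the median, where 62.5% were called. The groups did not overlap for 5 of the 6 genes, beside 66.4% of all probe sets. The median absolute difference was 0.53 for the 6 genes and 0.28 for all probe sets. For the 5 low genes the differences ran from -0.41 to 0.72. The median absolute difference of below-median probe sets, many of them lower in mean level than these genes, was 0.13.

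In amiR-ETP1/2 against air 1 of the 6, THI2.2, was called lower, beside 0.273% of all probe sets, and none higher, where 0.620% were called in either direction. None of the 5 low genes was called, beside 0.0967% of below-median probe sets, and the smallest difference called anywhere in this comparison was 0.79, above the 0.55 of GRX480 and the 0.50 of THI2.1. At an unadjusted p under 0.05 THI2.2, JMT and GRX480 were found, where 15.1% of all probe sets were. The groups did not overlap for 4 of the 6, beside 44.5% of all probe sets. Between amiR-ETP1/2 and ethylene THI2.2 was called higher, beside 18.2% of all probe sets, and SAG101 lower, beside 20.2%. In either direction 38.4% were called, and 4 of the 6 did not overlap, beside 71.0%. The comparisons share arrays, so the values of a gene in them are not independent of each other.

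**Figure D4:**
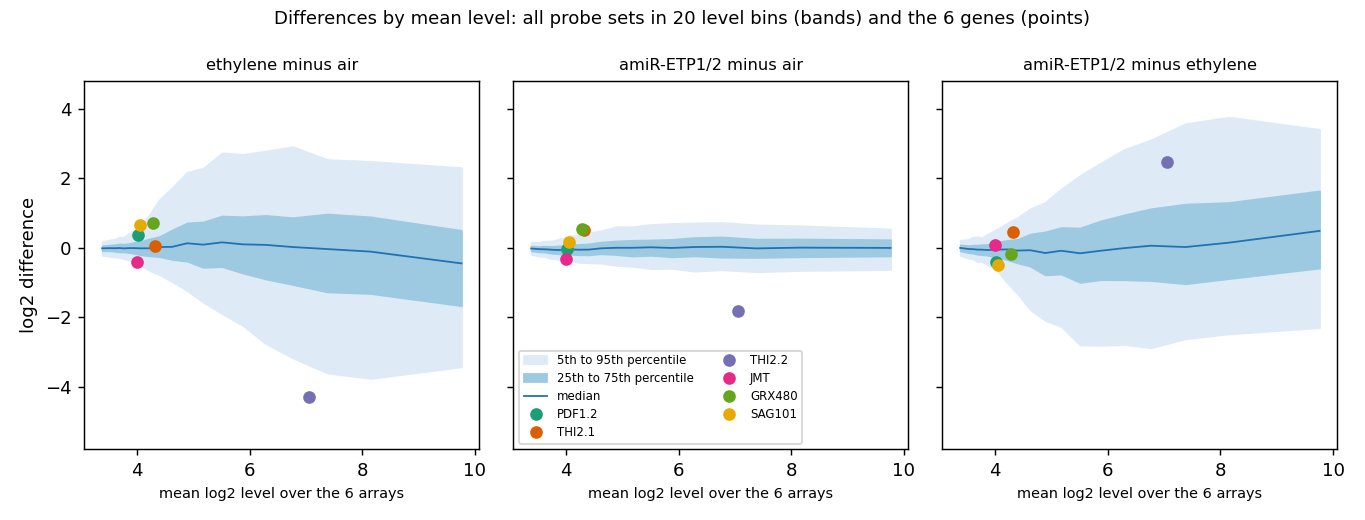
Log2 difference (vertical axis) against mean log2 level over the 6 arrays (horizontal axis) in the 3 comparisons; bands give percentiles of all probe sets in 20 bins of equal size by mean level, and points are the 6 genes. The band is narrow at the level of the 5 low genes and wide at that of THI2.2, which lies below the 5th percentile in both comparisons with air. SAG101 lies just above the 95th percentile with ethylene against air (0.66 beside 0.64). In amiR-ETP1/2 against air GRX480 (0.55 beside 0.35) and THI2.1 (0.50 beside 0.44) lie above it.

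**Figure D5:**
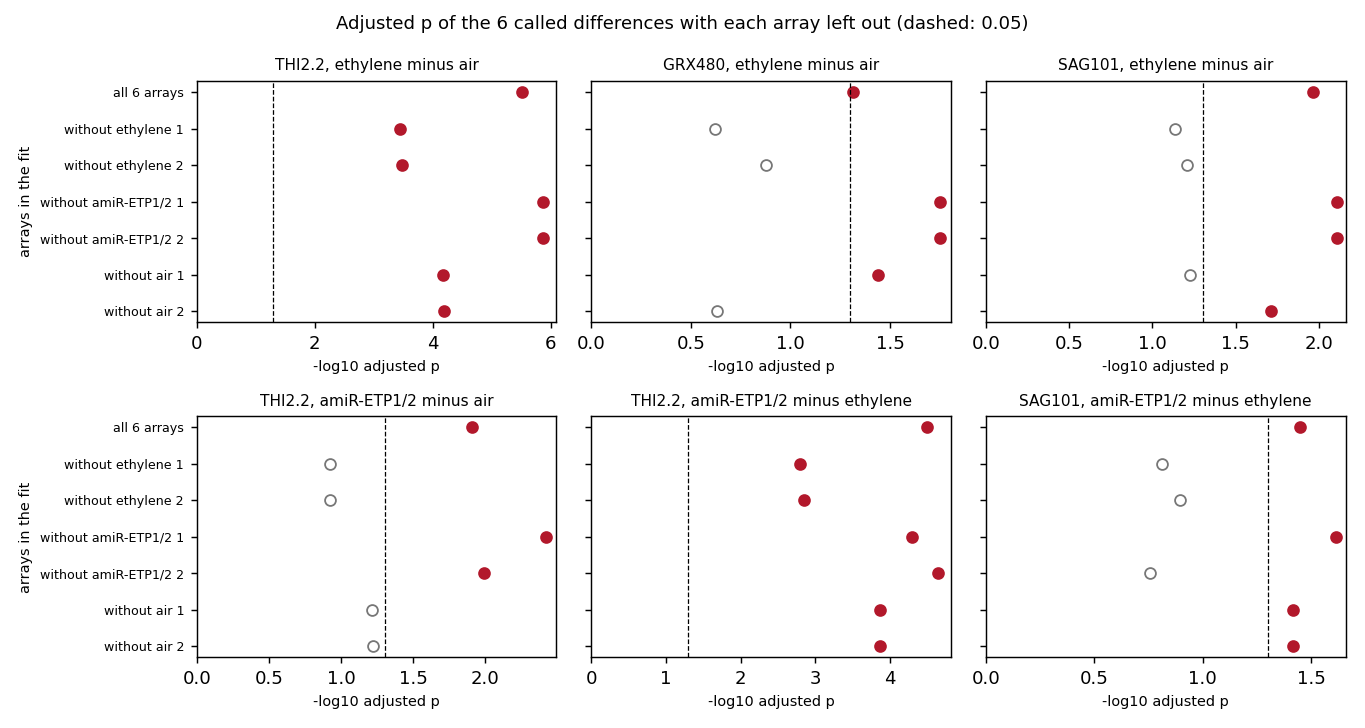
Adjusted p (limma, as -log10, horizontal axis) of the 6 called differences with all 6 arrays and with each array left out in turn (rows); filled red points are under 0.05, and the dashed line marks 0.05. THI2.2 stays under 0.05 in both comparisons with ethylene, whereas GRX480, SAG101 and the THI2.2 difference of amiR-ETP1/2 from air each cross the line without some arrays.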

How the data were processed

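Expression was measured on 6 arrays in 3 groups by label. The authors' deposited log2 values are 1 summarised level per probe set and array. The log2 scale was read from their range and is not stated, and neither are the background correction, summary and normalization. The submitters' processing notes name limma, with no version. Compression of low signals by those steps would carry over into the differences of genes near the floor. The number of arrays limits the precision.

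Of 22753 probe sets, 7 controls were left out and 22746 tested without a filter. Group means were estimated from all 6 arrays in 1 linear model (limma 3.58.1, R 4.3.3, default empirical Bayes step, 3 residual and 4.15 prior degrees of freedom), two-sided, with Benjamini-Hochberg adjustment over all probe sets within a comparison and a threshold of 0.05. The fit was run on simulated data with normal noise and few changed probe sets. That run checks the code and not the error rates in these data. SE and 95% intervals are those of the moderated model. A permutation of 2 arrays against 2 cannot go below 0.333 and was not made. The design text calls the replicates biological.

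Genes were named from the platform annotation (13513 single-gene probe sets, 13436 matched to TAIR10.1 loci, used for names, chromosomes and gene order only). It gave no name for 8737 probe sets and several genes for 503. A listed gene that was not measured may therefore still have a probe set on the array. The members and the 11 gene lists (128 genes, 24 measured) were chosen with earlier results of these data known, and all measured list genes are named by rule where the text describes defence or senescence. The closest profiles were the 3 highest Pearson's r for each member that varied by at least 1 log2 unit. Alternatives were quantile normalization, median centring, leaving out the lowest 40% of probe sets, raising low values to the 25th percentile, a replicate block, fits of 4 arrays, trend and robust options, and leaving out each array. Where that leaves 1 array in a group, it is assumed to vary like the others. Promoter and protein sequences were not used here.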

Additional observations from a re-analysis of the deposited data

How the results depend on the processing

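The THI2.2 differences of ethylene from air and of amiR-ETP1/2 from ethylene kept their direction and their call in all 13 alternatives. The 3 of 6 genes called with ethylene against air were fewer without some arrays and 4 under the trend and robust settings. They were 2 without the lowest 40%, which drops SAG101 from the test. The count stayed at 3 with quantile normalization, median centring or low values raised, but JMT was then called in place of GRX480. The 1 called in amiR-ETP1/2 against air was 0 with low values raised or with the 4 arrays compared, and 0 to 1 with arrays left out. The 2 called between amiR-ETP1/2 and ethylene were 1 after median centring and with the lowest 40% left out, which drops SAG101 from the test, 1 to 2 with arrays left out and 3 under the trend and robust settings. Over all probe sets the 141 calls of amiR-ETP1/2 against air were 213 with median centring, 259 with quantile normalization, 232 without the lowest 40%, 18 with low values raised, 9 with 4 arrays, 233 with the trend and robust options, and 9 to 252 with arrays left out. The counts of the other comparisons stayed within 1.5 times. The cause was not tested, except that leaving out 1 ethylene array gives the 4-array count because a lone array adds no spread. Signs turned in 5 of 225 values for the 6 genes and 29 of 915 for list genes, all uncalled. With arrays left out, the ranges of these differences with ethylene against air were -0.022 to 0.13 for THI2.1, -0.27 to 0.17 for BSMT1, -0.16 to 0.013 for PDF2.1 and -0.042 to 0.19 for SAG29. In amiR-ETP1/2 against air they were -0.065 to 0.0027 for PDF1.2, -0.49 to 0.40 for PDF1.4, -0.011 to 0.060 for PDF2.5, -0.011 to 0.016 for PDF2.6, -0.13 to 0.20 for MYC3, -0.14 to 0.24 for WRKY6, -0.16 to 0.13 for LHCB4.2, -1.05 to 0.092 for EXPA7 and -0.016 to 0.074 for EXPA18. Between amiR-ETP1/2 and ethylene they were -0.46 to 0.12 for GRX480, -0.013 to 0.16 for JMT, -0.12 to 0.054 for PDF2.1 and -0.43 to 0.65 for EXPA7. In amiR-ETP1/2 against air, quantile normalization gave 0.022 for PDF1.2, 0.0036 for PDF1.4 and 0.0080 for LHCB4.2, and median centring 0.014 for LHCB4.2. Low values raised gave -0.049 for PDF1.1, PDF2.5 and PDF2.6 there, and -0.0096 for PDF2.5 with ethylene against air. Of the list gene values, 874 kept their direction and side of the threshold.

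Over all probe sets, arrays with the same replicate number did not deviate together (correlations 0.07, -0.14 and -0.17). Single genes could differ from this. For GRX480 array 2 was below array 1 in every group. The replicate block lowered its SE for ethylene against air from 0.23 to 0.15 (limma adjusted p = 0.0122). With the replicate block the counts were 42 probe sets and 1 of the 6 genes in amiR-ETP1/2 against air, 7747 and 3 with ethylene against air, and 8277 and 1 between amiR-ETP1/2 and ethylene, where SAG101 had an adjusted p of 0.0621.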

Other observations

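JMT and PDF1.4 lie close together on chromosome 1, with 2 annotated protein-coding genes between them, and had different values with ethylene: PDF1.4 was 2.75 log2 units above air, and JMT differed from air by -0.41 without a call. The mean level of JMT over all arrays was 4.00.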
